A study of Mus musculus with 10 samples.

Results

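The data are p65 peaks at 9 genes of matrix turnover, from maps of p65, one of the proteins that make up NF-κB: the matrix metalloproteinase (MMP) genes Mmp8, Mmp9, Mmp12, Mmp13, Mmp14 and Mmp19, the inhibitor genes Timp2 and Timp3, and the sheddase gene Adam17. They were chosen by name, and all 9 were among the 21887 protein-coding genes of the RefSeq table of the mouse assembly GRCm38.p6. A peak was assigned to a gene when it overlapped the gene body or the 10 kb on either side of it. The cells were RAW264.7, a wild-type mouse macrophage line from a tumor induced by Abelson leukemia virus. Treatment lasted 12 h and was DMSO alone (the solvent), DMSO plus LPS (lipopolysaccharide of Gram-negative bacteria, an activator of macrophages), or LPS plus skatole, which gut microbes make from tryptophan. Each group had 3 libraries, called DMSO, LPS and LPS+Skatole below, each made by CUT&Tag from 200000 cells. In CUT&Tag an antibody brings a transposase to the protein on chromatin, and the released fragments are sequenced. All libraries came from 1 cell line, and the labels do not say whether the 3 libraries of a group were separate cultures, so the p-values measure the spread between these libraries. The labels name a p65 antibody and the methods of the study one against phosphorylated p65. The tenth sample, a Blank without primary antibody, was not analysed here. Peak lists hold no expression, so the macrophage label could not be checked on marker genes.

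MMPs are zinc-dependent enzymes that cut the proteins of the extracellular matrix. They are made as inactive proenzymes, and the tissue inhibitors of metalloproteinases (TIMPs) bind their active site. In osteoarthritis, MMPs from chondrocytes and synovial macrophages break down cartilage collagen, and NF-κB and AP-1 are well known activators of several of their genes in inflamed tissue.

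To see whether p65 peaks lay at the transcription starts of these genes, the RefSeq promoter windows of GRCm38.p6 (250 bases before to 50 after each start) were searched for peaks. Entries were found for 7 of the 9 genes, with 2 starts for Mmp12. At Adam17 the window held a peak in all DMSO and LPS libraries and in 1 of 3 LPS+Skatole libraries. At the internal start of Mmp12 it held a peak in 1 LPS+Skatole library. The windows of Mmp8, Mmp13, Mmp14, Timp2, Timp3 and the upstream Mmp12 start held no peak in any of the 9 libraries. Over all 32851 windows, the share with a peak ran from 26.5% in DMSO replicate 1 to 30.8% in LPS+Skatole replicate 2. The windows were also searched on both strands for the κB consensus, the motif bound by NF-κB, and for the AP-1 site TGANTCA, which reads the same on both strands. No κB consensus was found in the windows of the members, against 4.51% of all windows. The AP-1 letters were found at Mmp13 and at the internal start of Mmp12, against 7.81% of all windows, and lay 35 and 44 bases before the respective start. These matches describe the letters only.

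The 4 stretches of 250 bases upstream of a start printed here run 5′ to 3′ on the strand of the gene, with the AP-1 letters in capitals. Adam17 had a peak in its window in 7 of 9 libraries. Timp2 has a start of similar G and C content (68% against 70.4%) with no peak. Mmp13 and the internal Mmp12 start hold the AP-1 letters, with 40.4% and 39.6% G and C. Adam17 is at chr12:21373633-21373882 (minus strand), Timp2 at chr11:118355412-118355661 (minus strand), Mmp13 at chr9:7272264-7272513 (plus strand) and the internal Mmp12 start at chr9:7347124-7347373 (plus strand).
Adam17: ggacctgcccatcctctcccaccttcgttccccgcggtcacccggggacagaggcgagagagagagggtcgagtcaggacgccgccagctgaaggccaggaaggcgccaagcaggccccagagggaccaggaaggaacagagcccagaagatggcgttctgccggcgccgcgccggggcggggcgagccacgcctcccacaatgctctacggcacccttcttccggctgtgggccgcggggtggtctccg
Timp2: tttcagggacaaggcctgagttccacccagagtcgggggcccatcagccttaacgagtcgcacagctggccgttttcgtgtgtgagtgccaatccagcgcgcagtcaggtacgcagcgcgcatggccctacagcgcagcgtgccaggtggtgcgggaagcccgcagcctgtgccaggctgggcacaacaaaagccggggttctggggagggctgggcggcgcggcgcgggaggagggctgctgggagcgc
Mmp13: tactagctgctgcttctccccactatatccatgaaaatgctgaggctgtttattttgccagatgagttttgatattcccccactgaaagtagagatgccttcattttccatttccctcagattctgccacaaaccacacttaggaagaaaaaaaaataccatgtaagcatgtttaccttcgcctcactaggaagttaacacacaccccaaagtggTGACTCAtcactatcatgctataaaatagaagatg
Mmp12, internal start: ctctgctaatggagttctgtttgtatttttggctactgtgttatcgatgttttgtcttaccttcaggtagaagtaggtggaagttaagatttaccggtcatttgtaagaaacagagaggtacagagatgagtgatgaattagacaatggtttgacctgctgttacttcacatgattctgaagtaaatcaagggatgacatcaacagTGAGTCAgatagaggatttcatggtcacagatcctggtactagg

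Together the member genes had 19, 26 and 21 peaks under DMSO, 29, 32 and 29 under LPS, and 41, 41 and 47 under LPS+Skatole. The means were 22 ± 3.61, 30 ± 1.73 and 43 ± 3.46 (SD, n = 3), and no 2 groups overlapped. The lists themselves lengthened in the same order, from 37551 to 43450 peaks in DMSO, 55637 to 63498 in LPS and 78136 to 80153 in LPS+Skatole. As a share of its list, the members' peaks made up 0.0539% ± 0.0051 (DMSO), 0.0510% ± 0.0048 (LPS) and 0.0544% ± 0.0037 (LPS+Skatole), and these shares overlapped. The ratio between group means was 1.36 for the members and 1.40 for the mean gene in LPS against DMSO, 1.43 and 1.24 in LPS+Skatole against LPS, and 1.95 and 1.73 in LPS+Skatole against DMSO. When each list was reduced to its 37551 strongest peaks, the length of the shortest list, the members had 19, 22 and 18 peaks in DMSO, 26, 22 and 21 in LPS, and 25, 23 and 23 in LPS+Skatole. LPS+Skatole then exceeded LPS by 0.667 peaks on average, with overlap. It exceeded DMSO by 4, without overlap, and LPS exceeded DMSO by 3.33, with overlap.

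**Figure D1:**
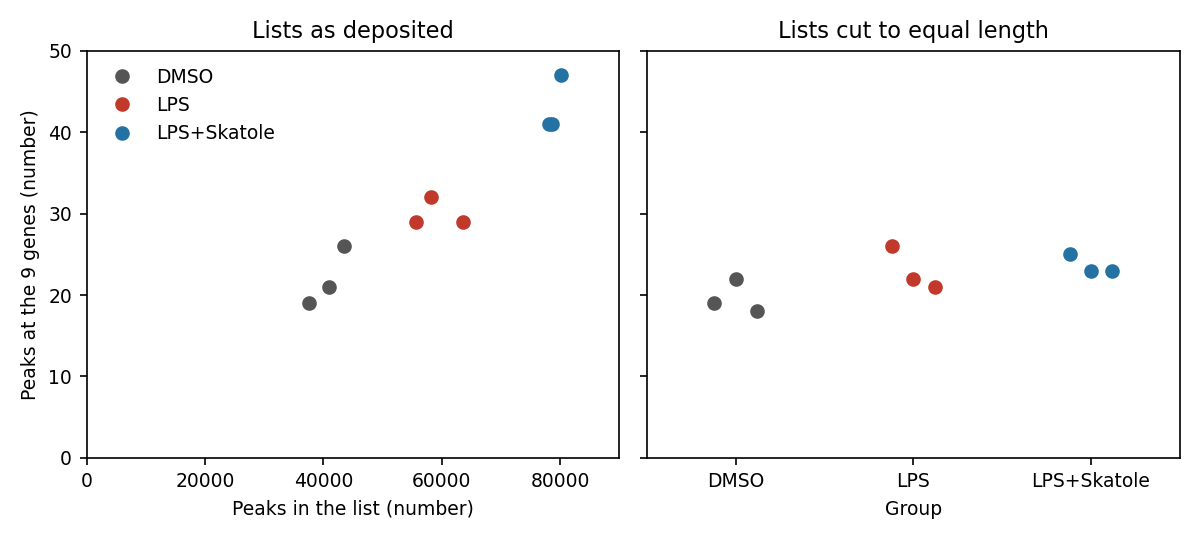
Peaks at the 9 genes (y axis, number) by library, on the left against the length of the deposited list (x axis, number of peaks) and on the right, by group, after each list was reduced to 37551 peaks. Each point is a library, and the gap between LPS and LPS+Skatole on the left (29 to 32 against 41 to 47) is not seen on the right (21 to 26 against 23 to 25).

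Peak numbers were unevenly spread over the genes. Adam17, which codes for the enzyme that releases tumor necrosis factor from the cell surface, had the most, with 6, 8 and 8 peaks in DMSO, 8, 10 and 8 in LPS, and 11, 12 and 15 in LPS+Skatole. Mmp14, which codes for a membrane-bound MMP that activates other proenzymes, had 4, 6 and 4, then 7, 9 and 7, then 7, 7 and 9. Timp2, whose product inhibits MMPs and also assists in activating one of them, had 2, 5 and 2, then 4, 6 and 3, then 8, 11 and 7. The 2 longest of these 3 genes, Timp2 and Adam17, span 54.4 and 50.1 kb, and Mmp14 spans 10.9 kb, so the numbers cannot be compared between genes as densities.

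Mmp9, the gene of gelatinase B, had 2, 3 and 2 peaks in DMSO, 5, 4 and 4 in LPS, and 4, 6 and 6 in LPS+Skatole. Mmp12, the gene of macrophage elastase, had 1, 1 and 0, then 2, 1 and 1, then 3, 2 and 2. Mmp19 had 2, 3 and 4, then 3, 2 and 3, then 4, 2 and 7, and its groups overlapped in every comparison. The collagenase genes and Timp3 were close to empty. Mmp13 had at most 1 peak in a library, as did Timp3, whose product stays bound to the matrix and also inhibits Adam17. Mmp8 had 0 or 1 peak in every library except LPS+Skatole replicate 1, which had 3. All 9 members had a peak in LPS replicate 3, and between 6 and 8 had one in each other library.

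Comparing LPS with DMSO asks which genes gained p65 peaks on activation. The numbers were higher without overlap at Mmp9 and Mmp14, 2 of 9 members, against 12.2% of the 19505 genes with a peak in any library, and lower at none (0.364%). In LPS+Skatole against LPS they were higher without overlap at Timp2 and Adam17, against 9.1% of all genes, and lower at none (0.774%). In LPS+Skatole against DMSO they were higher at Mmp9, Mmp12, Mmp14, Timp2 and Adam17, 5 of 9, against 25.4%, and lower at none (0.174%). The median difference over members was 0.667 peaks for LPS against DMSO, equal to that over all genes, 1 against 0.333 for LPS+Skatole against LPS, and 1.67 against 1 for LPS+Skatole against DMSO. A pair of groups of 3 cannot give p under 0.1, so the 3 groups were also tested jointly over all 280 divisions of the libraries, with a smallest p of 0.00357. The exact permutation p was 0.0214 at Adam17 and at Timp2, 0.025 at Mmp9, 0.0357 at Mmp14 and 0.0643 at Mmp12, and after Benjamini-Hochberg adjustment over all genes none was under 0.259.

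With lists of equal length, Timp2 was the only member still higher without overlap, with 2, 4 and 2 peaks in DMSO, 4, 4 and 3 in LPS, and 7, 8 and 5 in LPS+Skatole. It stood above LPS as 1.8% of the 17212 genes with a peak in these lists did (2.29% stood below), and above DMSO as 3.55% did. These peaks cannot all be assigned to Timp2. Of the 17 regions at Timp2 in the deposited lists, 10 had an end of another gene nearest, Usp36 or Cep295nl, and some lay within Cep295nl. The region by the end of Usp36, chr11:118288267-118291758, was counted only in lists where its peak reached into the window. Adam17 lay on the opposite side, with 6, 7 and 6 peaks in DMSO, 6, 6 and 5 in LPS, and 4, 5 and 4 in LPS+Skatole. It was then below DMSO without overlap, as were 3.55% of all genes. No member separated LPS from DMSO in these lists (3.13% of genes stood above and 2.52% below).

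**Figure D2:**
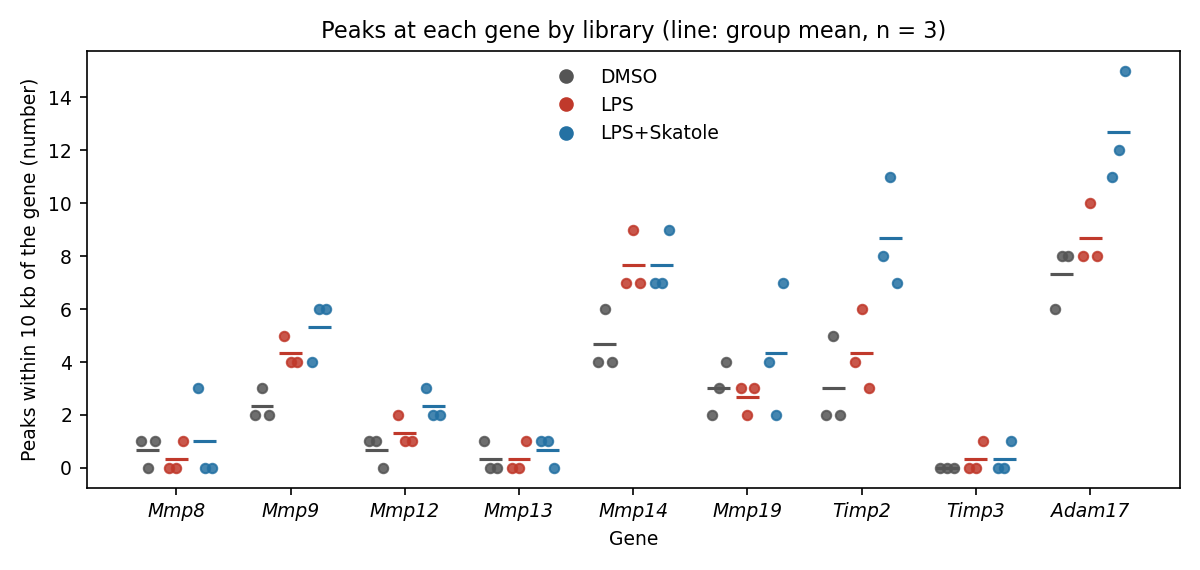
Number of peaks (y axis) within 10 kb of each gene (x axis) in the deposited lists. Each point is a library and each line the mean of 3 libraries, with Timp2 and Adam17 highest in LPS+Skatole (7 to 11 and 11 to 15 peaks), and Mmp13 and Timp3 at 0 or 1.

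To ask whether sites appeared or disappeared, peaks of all libraries that overlapped were joined into regions, which gave 93 regions at the members. Of these, 48 (51.6%) had a peak in 1 library only and 12 (12.9%) had one in all 9. Over all 235070 regions the shares were 71.3% and 5.88%. A region was called gained or lost when all 3 libraries of one group and none of the other had a peak. No region at a member was gained or lost in any comparison. Over all regions with a peak in the libraries compared, 1.65% were gained and 0.0685% lost in LPS against DMSO, 0.583% and 0.129% in LPS+Skatole against LPS, and 2.36% and 0.0434% in LPS+Skatole against DMSO. Under a looser rule, at least 2 libraries of one group and none of the other, LPS against DMSO had 0 gained and 2 lost of 58 regions (0% and 3.45%, against 6.17% and 0.842% of all regions). LPS+Skatole against LPS had 10 gained and 0 lost of 84 (11.9% and 0%, against 3.74% and 1.4%), and LPS+Skatole against DMSO had 12 gained and 1 lost of 79 (15.2% and 1.27%, against 7.74% and 0.492%). Another gene had the nearest end at 36 of the 93 regions.

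Strength was given as height, the number of fragments at the summit divided by the genome background of the library, which is the lowest background in its list and stands for depth. That background was 1.09 to 1.40 fragments in DMSO, 2.23 to 2.34 in LPS and 2.26 to 2.39 in LPS+Skatole. Because of it, the lowest height called was 6.44 to 7.34 in DMSO and 4.59 to 4.94 in the other libraries, so weak regions could be missed in DMSO. Heights also shifted as a whole: over all shared regions the median ratio was 0.842 in LPS against DMSO, 1.21 in LPS+Skatole against LPS and 0.993 in LPS+Skatole against DMSO. The ratios below are therefore read against these, and the calls were repeated after scaling each library to its median height over the 13824 regions called in all 9 libraries, and on the authors' fold over the local background. Of the 12 member regions called in all 6 libraries of LPS and DMSO, heights were higher in LPS without overlap at 4 and lower at 3, against 4.07% and 23.7% of 14394 regions. After scaling the counts were 5 and 2 (8.52% and 10.6% of all regions), and on the fold 5 and 1 (8.93% and 9.15%). Of 16 in LPS+Skatole against LPS, 4 were higher and 1 lower, against 24.2% and 1.55% of 19799. After scaling the counts were 2 and 2 (8.23% and 8.49%), and on the fold 3 and 2 (20.1% and 1.87%). Of 12 in LPS+Skatole against DMSO, 3 were higher and 2 lower, against 13.1% and 11.5% of 14504. After scaling the counts were 3 and 3 (10.3% and 15.6%), and on the fold 4 and 1 (20.9% and 4.65%). The smallest pairwise p is 0.1, and no adjusted p at the regions described here was under 0.123.

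Among member regions called in all LPS and LPS+Skatole libraries, the one with the largest height ratio of LPS+Skatole to LPS lay upstream of Mmp12. This region, at chr9:7335208-7338282, had its summit 7.27 kb before the first start of Mmp12, and no other gene had a nearer end. The summit held 30, 21 and 32 fragments under LPS against 60, 70 and 69 under LPS+Skatole. The heights were 12.1 ± 2.29 and 28.5 ± 2.68 (SD, n = 3), and did not overlap (p = 0.1 in the exact permutation test, the lowest it can give, adjusted p = 0.388). The ratio was 2.36, beside a median of 1.21 over all regions, of which 24.2% were higher without overlap by height. It was 1.95 after scaling, where 8.23% of all regions were higher without overlap, and 2.32 on the authors' fold, where 20.1% were. In DMSO it was called in replicate 1 only, with 18 fragments and a height of 16.5, above all 3 LPS libraries, while its fold of 9.09 lay below 2 of the 3 LPS libraries (9.41, 6.82 and 9.87). It was not called in the other 2 DMSO libraries, where a height under 6.44 and 6.62 would be missed.

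Timp2 had a pair of neighbouring regions upstream of its start that ordered the groups differently. At chr11:118362198-118363892, 7.84 kb before the start, heights were 24.8, 15.7 and 24.3 in DMSO, 36.6, 28.8 and 35.8 in LPS, and 27.8, 17.7 and 27.6 in LPS+Skatole. LPS was above both other groups without overlap, by 1.56 over DMSO, and LPS+Skatole stood at 0.722 of LPS. This was the only member region lower in LPS+Skatole than in LPS without overlap by height (1.55% of all regions were). It stayed lower without overlap after scaling (0.595, with 8.49% of regions lower) and on the fold (0.72, with 1.87% lower). At chr11:118364430-118367102, 9.93 kb before the start, heights were 15.6, 10 and 17.7 in DMSO, 19.2, 21.6 and 22.2 in LPS, and 29.1, 31.4 and 24.6 in LPS+Skatole. Here the groups followed each other without overlap, LPS standing at 1.45 times DMSO and LPS+Skatole at 1.35 times LPS (joint exact permutation test, p = 0.00357, the smallest possible, adjusted p = 0.123). After scaling, the second ratio was 1.11 with overlap, and LPS stayed above DMSO at 1.67. On the fold both ratios were without overlap, at 1.67 and 1.34. Both regions were called in all 9 libraries. So was the tallest region at Timp2, chr11:118288267-118291758, 10.8 kb past the far end of Timp2 and 0.043 kb from an end of Usp36. Its heights were 97.3, 83.7 and 98.6 in DMSO, 75.4, 82.2 and 58 in LPS, and 88.9, 78.3 and 73.9 in LPS+Skatole. LPS stood at 0.771 of DMSO without overlap by height, and at 0.887 after scaling and 0.957 on the fold with overlap, while the other comparisons overlapped. Inside the Timp2 gene no region was called in every library, and the region called in most, 42.9 kb past the start, was called in 1 DMSO library, 2 LPS libraries and all 3 LPS+Skatole libraries.

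Mmp14 carried a region at its far end, chr14:54441100-54443194, with the summit 0.172 kb past the end of the gene. The summit held 23, 20 and 20 fragments in DMSO, 52, 80 and 73 in LPS, and 97, 76 and 63 in LPS+Skatole. Heights were 16.7 ± 3.82, 29.9 ± 6.73 and 33.8 ± 7.58 (SD, n = 3). LPS stood at 1.79 times DMSO and LPS+Skatole at 2.02 times, both without overlap, and so they did after scaling (2.05 and 1.91, where 8.52% and 10.3% of regions were higher) and on the fold (2.17 and 2.46, where 8.93% and 20.9% were higher). LPS+Skatole and LPS overlapped, at a ratio of 1.13. The joint p was 0.0429 (exact permutation test, adjusted p = 0.215). The strongest region in the window of Mmp14, at chr14:54425805-54428462, lay 0.45 kb from an end of Mrpl52, a mitochondrial ribosomal protein gene. Its heights overlapped in all 3 comparisons. Inside Mmp14, chr14:54432956-54437319 was called in all LPS and LPS+Skatole libraries. LPS+Skatole stood there at 1.23 times LPS without overlap by height (24.2% of regions higher) and on the fold (20.1%). After scaling it stood at 1.02 with overlap. At chr14:54445305-54447704, 3.72 kb past the gene, LPS+Skatole overlapped LPS. The ratios there were 0.694 by height, 0.575 after scaling and 0.697 on the fold.

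At Mmp9 the strongest region was chr2:164940160-164944241, which spans one end of the gene and has its summit inside, 2.75 kb from that end. It held 33, 42 and 45 fragments in DMSO, 75, 75 and 108 in LPS, and 99, 138 and 86 in LPS+Skatole. Heights were 31.1 ± 1.71, 37.5 ± 7.45 and 46.4 ± 13.1 (SD, n = 3). LPS+Skatole was above DMSO without overlap at 1.49 times, while LPS overlapped DMSO by height but not after scaling (1.37 times) or on the fold (1.48 times). LPS+Skatole and LPS overlapped, at 1.24 by height and 1.02 after scaling. A further region of Mmp9, at chr2:164947544-164948842, was called in 1 DMSO library and in all LPS and LPS+Skatole libraries. It had heights of 17.9, 14.4 and 20.1 in LPS and 19.7, 17.3 and 11.7 in LPS+Skatole, with overlap.

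The strongest region of Adam17, at chr12:21334668-21337154, was inside the gene 37.6 kb past the start and lower after LPS. Heights were 101, 145 and 141 in DMSO, 60.1, 70.5 and 73.4 in LPS, and 79.1, 68.1 and 62.2 in LPS+Skatole. LPS stood at 0.528 and LPS+Skatole at 0.542 of DMSO without overlap, and after scaling at 0.603 and 0.511 (10.6% and 15.6% of regions lower) and on the fold at 0.618 and 0.632 (9.15% and 4.65% lower). The joint p was 0.0321 (exact permutation test, adjusted p = 0.199), and LPS+Skatole and LPS overlapped at 1.03. At the start of Adam17 the region chr12:21372971-21374703, which includes the promoter shown, was called in all 9 libraries. Its heights were 57.8, 35.8 and 47.8 in DMSO, 36.6, 25.6 and 34.6 in LPS, and 20.9, 21.7 and 28.8 in LPS+Skatole. LPS+Skatole stood at 0.505 of DMSO without overlap, and at 0.478 after scaling, but at 1.41 with overlap on the fold. Against LPS it stood at 0.738 with overlap by height, at 0.608 without overlap after scaling, and at 1.55 with overlap on the fold. The local background there was 2.54 to 16.6 times the genome background, depending on where in the region the summit fell, and the fold was 1.77 to 7.42. Adam17 had another pair of regions called in all 9 libraries. At chr12:21368632-21370501, 3.4 kb past the start, heights were 40.4, 35 and 46.4 in DMSO, 19.6, 16.6 and 42.7 in LPS, and 30.3, 43.4 and 42.6 in LPS+Skatole, with overlap in every comparison by height, after scaling and on the fold. At chr12:21315350-21318967, 0.074 kb from an end of Iah1 and 7.07 kb from the end of Adam17, heights and scaled heights overlapped in every comparison. On the fold LPS+Skatole stood there at 0.544 of LPS without overlap, and the summits of the 9 libraries were spread over 2508 bp. Over summits placed on the same base in 2 libraries with a local background above 1.2 times the genome background (346 to 642 per pair of libraries), the local background relative to the genome background had the same value in both within a 5th to 95th percentile range of 0.946 to 1.07, as from a background track common to the lists, whose source is not given in the sources used here.

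**Figure D3:**
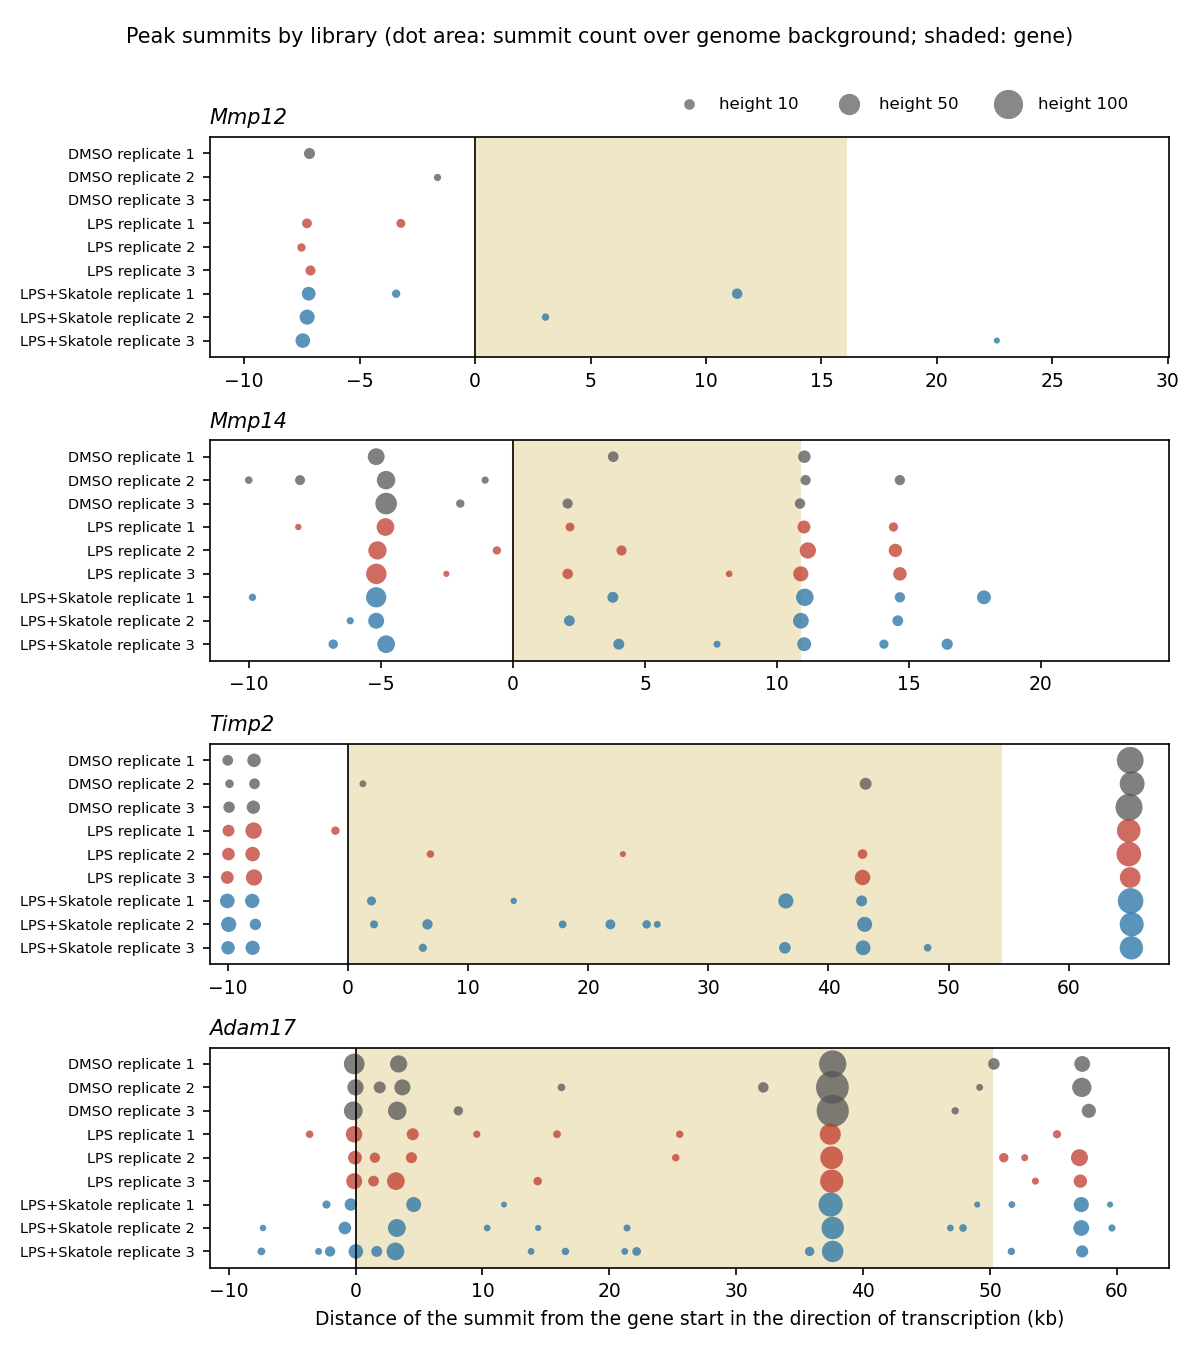
Summit position of the strongest peak of each region (x axis, kb from the gene start in the direction of transcription) in each library (rows) at Mmp12, Mmp14, Timp2 and Adam17, with the dot area giving the height and the shaded band the gene. The same positions recur across libraries at the strong regions, such as 7.27 kb before Mmp12 and 37.6 kb inside Adam17, while most small dots inside Timp2 and Adam17 are in 1 or 2 libraries.

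Mmp19, an MMP of basement membrane components, had a pair of regions called in all 9 libraries, both outside the gene. At chr10:128778600-128781539, 11.3 kb from the nearest end of Mmp19, LPS heights were above DMSO without overlap (37.5, 30.6 and 30.3 against 30.3, 18.6 and 18.4), at 1.46 times, although the lowest LPS height exceeded the highest DMSO height only beyond the digits shown (30.29 against 30.288). They were also above DMSO without overlap after scaling (1.68) and on the fold (1.80). At chr10:128803596-128805754 LPS was lower than DMSO without overlap by height (0.64) and after scaling (0.733), and overlapped it on the fold (0.503). There LPS+Skatole stood at 1.32 times LPS by height and 1.08 times after scaling, both without overlap, and at 1.29 with overlap on the fold. The median summit lay 0.018 kb from an end of Tmem198b and within Dnajc14. Summits of the 9 libraries were spread over 496 bp. The local background was 2.03 to 5.86 times the genome background, depending on where in the region the summit fell. Inside Mmp19 a region at chr10:128792338-128792778 was called in 2 DMSO libraries and in no other, with heights of 9.3 and 8.83.

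The members with few peaks were described library by library. Mmp13 had 4 regions, each in 1 library, with 10 to 14 fragments, all outside the gene. Timp3 had a region 6.15 kb before its start in LPS replicate 3, with 24 fragments, and another 10.1 kb past the start in LPS+Skatole replicate 3, with 18. Mmp8, the gene of neutrophil collagenase, had 3 regions inside the gene. The one at chr9:7562384-7563492 held 9 and 12 fragments in 2 DMSO libraries and 19 in 1 LPS+Skatole library, and none was called in LPS. The one nearest the end of Mmp8, 9.13 kb past the start, held 29 fragments in LPS replicate 3 and 66 in LPS+Skatole replicate 1, so a single library gave the high value.

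**Figure D4:**
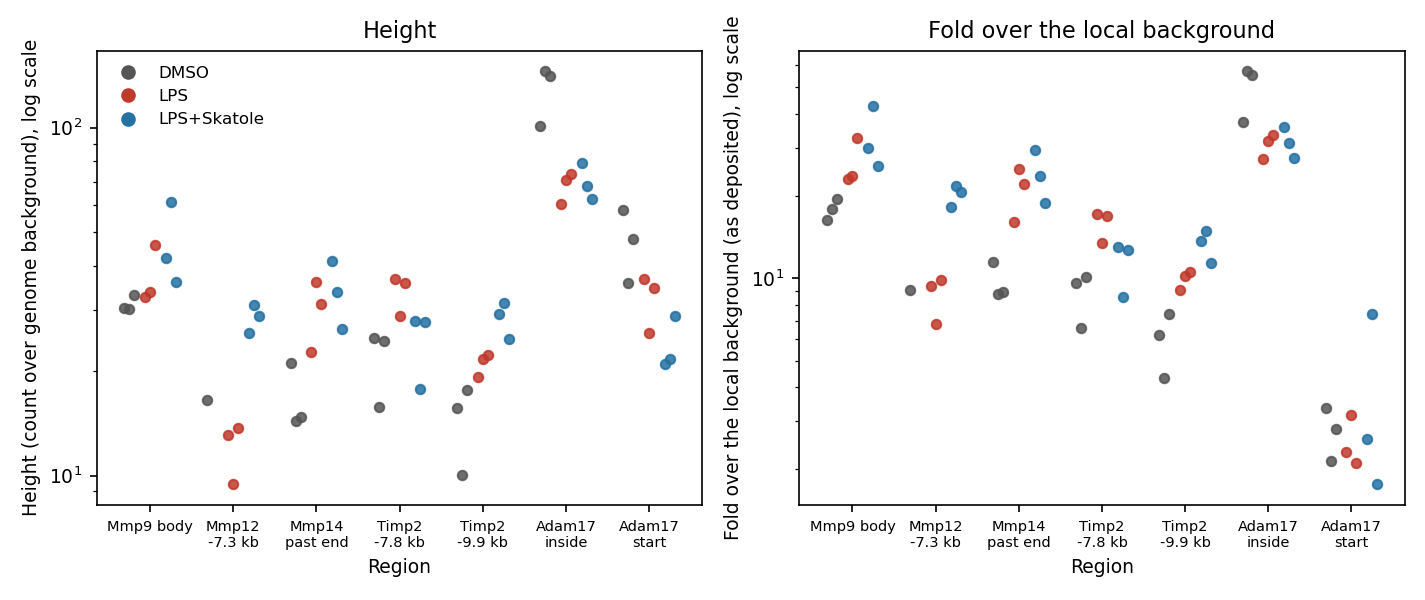
Height (left, fragments at the summit over the genome background) and fold over the local background (right, as deposited) of 7 regions, both on log axes, with 1 point per library in which the region was called. At 7.27 kb before Mmp12 the LPS+Skatole points lie above the LPS points in both plots, while at the Adam17 start LPS+Skatole and DMSO are apart by height and overlap by fold.

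The rank of the strongest peak by −log10 p was taken within each list, and is given for genes with a peak in all 9. These were Mmp9, Mmp14, Mmp19, Timp2 and Adam17, among 11870 genes. The strongest peak of Mmp9 stood at the 86.1, 88.1 and 89.2 percentile of the DMSO lists, at 94.6, 95 and 97.7 in LPS, and at 96.7, 98.9 and 95 in LPS+Skatole. It was above DMSO without overlap in LPS, as for 20% of genes, and in LPS+Skatole, as for 31.6%. Of the other 4, only Timp2 in LPS+Skatole was above DMSO without overlap by percentile. None was below DMSO (2.4% of genes for LPS and 1.57% for LPS+Skatole). No member separated LPS+Skatole from LPS by percentile (14.6% of genes higher, 3.18% lower) or by place (5.4% nearer the top, 9% farther from it). Counted from the top of the list, the Mmp9 peak moved from place 4952 ± 450.2 to 2438 ± 869.9 in LPS and 2511 ± 1567 in LPS+Skatole (SD, n = 3). This was again without overlap with DMSO (7.09% and 7.27% of genes nearer the top). Adam17 stood at places 334, 81 and 85 in DMSO, 788, 485 and 504 in LPS, and 557, 973 and 1341 in LPS+Skatole. It was thus lower in the list in both treated groups than in DMSO without overlap, as for 9.97% and 14.6% of genes. By percentile Adam17 overlapped in these comparisons, since the longer lists place both near the top (99.6, 99 and 98.8 on average). The strongest peak at Timp2 was at place 10100 and 10168 in 2 DMSO libraries and at 369 in the other, because the tall region by the end of Usp36, chr11:118288267-118291758, reached into the 10 kb window in some lists only. For Mmp14 and Mmp19 the percentiles overlapped in all 3 comparisons. By place Mmp19 was lower in LPS+Skatole than in DMSO without overlap, as for 14.6% of genes. Its region chr10:128778600-128781539 also reached into the window in some lists only. With that region kept in each list, the LPS+Skatole places of 3502.5, 7858.5 and 3926 overlapped the DMSO places of 2010, 2620 and 3515. On chr10:128803596-128805754 alone, LPS+Skatole stood at 6433, 8678 and 4433, without overlap with DMSO.

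Among 39 other genes of matrix turnover, taken as lists of the other Mmp genes, other inhibitors, membrane sheddases and aggrecanases, plasminogen activation and cathepsins, 38 had a peak in some library and Mmp7 had none. In LPS against DMSO, 6 (15.8%, beside 12.2% of all genes) were higher without overlap (Mmp2, Mmp24, Mmp25, Mmp28, Plaur and Serpinb2) and 1 lower (Mmp16, 2.63% beside 0.364%). In LPS+Skatole against LPS, 6 (15.8%, beside 9.1%) were higher (Mmp15, Mmp20, Mmp28, Adam10, Adam19 and Adamts4) and none lower (beside 0.774%), and in LPS+Skatole against DMSO 12 (31.6%, beside 25.4%) were higher and none lower (beside 0.174%). Mmp28, the gene of epilysin, was the only one of the 38 to separate all 3 groups, with 3, 2 and 3 peaks in DMSO, 5, 5 and 4 in LPS, and 7, 7 and 6 in LPS+Skatole (joint exact permutation test, p = 0.00357, adjusted p = 0.259). Plaur, the urokinase receptor gene, had 4, 4 and 5 peaks in DMSO, 8, 11 and 9 in LPS, and 12, 8 and 9 in LPS+Skatole. Adam10, the closest relative of Adam17 among the sheddases, had 13, 8 and 8, then 10, 12 and 13, then 19, 14 and 14. Timp1, the inhibitor induced in inflammation, had 2, 1 and 0, then 3, 2 and 4, then 3, 4 and 3.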

How the data were processed

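CUT&Tag peak lists of 9 libraries were used, 3 per group, with groups taken from the sample titles. The authors deposited 1 narrowPeak list per library, whose rows give a peak's interval and summit, a score (10 times the −log10 p without its decimals, in 99.996% of rows or more of each list), a fold ratio over the local background, and −log10 p and −log10 q values. The peak caller, the handling of duplicates and the use of a control are not given in the sources used here. The submitters' processing notes name mm10, the same assembly as GRCm38, and fastp 0.20.1, HISAT2 2.1.0 and StringTie 2.0 without their roles. Each list ended just above a −log10 p of 5.

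The summit count and local background were recovered from the deposited fold ratio and −log10 p, taking the fold as (count + 1)/(background + 1) and p as a Poisson upper tail. At least 99.99% of counts came out whole within 0.02. PCR copies could not be told apart, so counts are fragments. Recovery and tests were tested on simulated data. Peaks overlapping by 1 bp were merged into regions. The lists hold no library totals, and precision is limited by the 11 or fewer fragments that sufficed for the weakest call. Python 3.11.15, numpy 2.4.6, pandas 2.3.3 and scipy 1.17.1 were used. Tests were two-sided exact permutation tests for pairs and a joint test of 3 groups, with Benjamini-Hochberg adjustment over all genes or regions. Named regions were chosen from those of the 9 members, first gained or lost, then called in all 9 libraries or at least 2 of a group. Not every region that met this rule was named. Regions of Mmp8, Mmp13 and Timp3 outside this rule were named after their values were seen. The distances at Mmp9 and Mmp19 are from ends of the gene table, which has no strand. No 2 lists shared more than 0.0107% of intervals. The members and lists were chosen with earlier results of these data known.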

Additional observations from a re-analysis of the deposited data

How the results depend on the processing

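Each alternative changed 1 setting. For the summed peak number (differences of 8 for LPS over DMSO, 13 for LPS+Skatole over LPS and 21 for LPS+Skatole over DMSO), no setting turned a direction. The window of 3 kb gave 3.67 and 14 for the first and last difference, the gene body alone 2.33 and 12.7, lists of equal length 3.33, 0.667 and 4, and a summit of at least 8 times the genome background 4.33, 7.33 and 11.7 for all 3. The number of members without overlap (2, 2 and 5) was 1 and 3 for LPS+Skatole against LPS and DMSO with the 3 kb window and with a −log10 p of at least 7, 3 for LPS+Skatole against DMSO with the gene body alone, 0, 1 and 2 with equal lists, and 1, 1 and 2 with the height limit. Shares over all genes were computed only for the deposited lists and those of equal length. The other counts, here and with a library left out, have none beside them. For LPS against DMSO, Mmp9 was lost with the p limit (Adam17 took its place) and the height limit. For LPS+Skatole against LPS, Adam17 was lost with the 3 kb window, the gene body (Mmp19 took its place), the p limit, the height limit and equal lists, and Timp2 was kept in each. For LPS+Skatole against DMSO, Mmp12 and Adam17 were lost with the 3 kb window and the gene body, Mmp9 and Mmp12 with the p limit, and all 3 with the height limit. With equal lists the difference at Adam17 was -1.33 peaks for LPS+Skatole against LPS and -2 against DMSO, the opposite of the deposited lists. The height ratio at the Adam17 start for LPS+Skatole against DMSO was 1.41 on the fold. The causes were not tested. Under the looser rule, at least 2 libraries of a group and none of the other held a region. LPS against DMSO then had 0 gained and 2 lost of 58 (0% and 3.45%, against 6.17% and 0.842% of all regions). LPS+Skatole against LPS had 10 gained and 0 lost of 84 (11.9% and 0%, against 3.74% and 1.4%). LPS+Skatole against DMSO had 12 gained and 1 lost of 79 (15.2% and 1.27%, against 7.74% and 0.492%).

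Leaving out a library gave 6.5 to 10, 11 to 14 and 19 to 23 for the 3 summed differences and 2 to 3, 2 to 3 and 5 for the members without overlap. Gained or lost regions ran from 0 to 3 for LPS against DMSO, 0 to 5 for LPS+Skatole against LPS and 0 to 6 for LPS+Skatole against DMSO. Without DMSO replicate 1, 1 region was gained and 1 lost in LPS, and likewise in LPS+Skatole, against DMSO. Without DMSO replicate 2, 2 were gained and 1 lost in LPS, and 3 gained and 0 lost in LPS+Skatole. Without LPS+Skatole replicate 1, 5 were gained against LPS and 6 against DMSO. Without replicate 2 these were 2 and 3, and without replicate 3 they were 3 and 3, with 0 lost in each. All other counts were 0. The rule is easier to meet with a library left out, since fewer libraries have to satisfy it. Shares over all regions were not computed for these settings, so the counts cannot be set against the series. Replicate numbers were shared by the groups. Correlations of deviations from the group means over 19505 genes ran from -0.011 to 0.042 for equal numbers and from -0.039 to 0.021 for unequal ones. Such deviations in small peak numbers cannot tell whether libraries of equal number were paired. With a replicate block the differences are 8, 13 and 21 by construction, since each group has 3 libraries, so the block says nothing about stability, and 3 pairs cannot give p under 0.25. Scaling and fold alternatives for height were chosen after seeing the data. The lower depth of the DMSO libraries limits the calling of weak regions there.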
